A study of Mus musculus with 9 samples.

Results

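The genes described here encode p62, its partner KEAP1, the transcription factor NRF2 and proteins that act beside them. They were chosen by symbol: Sqstm1, Nbr1, Tax1bp1 and Optn for cargo receptors, Keap1 and Cul3 for the ligase, and Nfe2l2, Nfe2l1, Mafg and Bach1 for transcription factors. All 10 were found among the 24411 genes of the count table, each as 1 row, and all 10 passed the filter on low counts that left 11238 genes to test. The study asked by RNA-seq of mouse liver what loss of autophagy does to gene expression, and how much of that needs a phosphorylation site of p62. There were 9 libraries, each labelled as a separate liver, in 3 groups of 3. The cont. livers were Atg7 flox/flox with no Cre. The Atg7-KO livers were Atg7 flox/flox;Alb-Cre, so that the albumin promoter drives Cre and Atg7, needed to conjugate LC3 to membranes, is deleted in hepatocytes while the other cells of the liver keep it. The third group, Atg7-KO;p62 S351A and named S351A in what follows, lacked Atg7 in the same way and was homozygous, by the sample titles, for a p62 allele with Ser351 replaced by alanine. All mice were 3 months old and on a C57BL/6 background, and no group analysed here carried p62 S351A with intact Atg7. The genotype entries of replicates 2 and 3 of the last group name the second p62 allele as S352A and S353A, numbers that count up with the replicate, and the group was taken from the sample titles.

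p62 gathers ubiquitinated proteins into condensates and is itself degraded by autophagy, so it builds up when autophagy stops. KEAP1 is the substrate adaptor of a CUL3 ubiquitin ligase that holds the stress-response factor NRF2 at a low level. p62 binds the same pocket of KEAP1 as NRF2 does, through a motif that resembles the ETGE motif of NRF2, and phosphorylation of Ser351 in that motif strengthens the binding and releases NRF2. Much of this control acts on proteins, whereas the values here are mRNA levels.

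The coding stretch of NRF2 that binds KEAP1 is shown because p62 competes with it for the same pocket. It was read on the coding strand from the GENCODE M21 transcripts (mm10). It lies in exon 2 of 5 of Nfe2l2, at chr2:75679223-75679252 on the - strand, and holds codons 75 to 84, with the 4 codons of the ETGE motif in capitals.
Nfe2l2: caactggatgaaGAAACAGGAGAAttcctc
A shorter annotated Sqstm1 transcript of 404 codons, against 442 in the longer one, lacks 114 coding bases. The deposited table holds 1 value per gene, so neither the mutated codon nor these transcripts can be told apart in it.

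Library totals ran from 1875335 to 15426589 counts in the cont. group, from 1945492 to 3675073 in the Atg7-KO group and from 713854 to 792392 in the S351A group, so the S351A livers have the fewest counts behind each value. Levels are given as CPM, which are counts scaled to library size, after TMM adjustment, with the SD over 3 libraries. A gene was called when edgeR's quasi-likelihood test gave a Benjamini-Hochberg adjusted p under 0.05 over all tested genes and the fold change exceeded 1.5. The targeted gene Atg7 stood at 48.1 ± 8.11 CPM in cont. livers, at 28.6 ± 1.14 CPM in Atg7-KO livers and at 22.8 ± 1.62 CPM in S351A livers. Against cont. it was called lower in the Atg7-KO group (log2 change -0.74, adjusted p 0.00748) and in the S351A group (-1.07, adjusted p 0.00314). Neither call held with scaling by total counts (-0.21 and -0.59), and a count over the whole gene does not separate its deleted part.

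Markers of several cell types moved with the groups. The summed level of 6 hepatocyte markers ranged from 49381 to 102425 CPM in cont., from 31043 to 37842 in Atg7-KO and from 29456 to 42794 in S351A livers, and 5 of the 6 were called lower than in cont. in both. Albumin makes up most of that sum, and the sixth, Hnf4a, a transcription factor of hepatocytes, stood the other way, with a mean of 552 CPM in cont. livers against 718 and 674 CPM in the groups with Cre. All 5 ductular markers were called higher in both, with sums of 46.8 to 82.8 CPM in cont. against 811 to 1193 in Atg7-KO and 714 to 1185 in S351A livers. The 6 stellate and matrix markers summed to 250.5 to 511 CPM in cont., 1199 to 1656 in Atg7-KO and 1110.0 to 1603 in S351A livers, with 5 called higher in both, and all 4 proliferation markers were called higher in both. Of 6 macrophage markers, 4 were called higher in both (180.2 to 254 CPM summed in cont., 253 to 322 in Atg7-KO, 226 to 247 in S351A livers). Of 5 endothelial markers, 1 was called higher in both and 2 lower in Atg7-KO livers. Only 1 of 5 lymphocyte markers passed the filter, and it was called higher in Atg7-KO livers. Of 3 erythroid markers, 1 was called lower in both and 1 had no counts in any library. In whole liver, fewer cells of a type and less RNA per cell cannot be told apart, and the part of these shifts in the changes below was not tested.

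The first question was which of the 10 genes changed when hepatocytes lost Atg7. Only Optn, the gene of the autophagy receptor optineurin, was called, at 0.515 of its level in cont. livers. Genes that were not called are not shown to be unchanged. No gene of the 10 was called higher. Among all tested genes 38.0% were called in this comparison, 19.9% higher and 18.1% lower, so that 1 call in 10 lies below the background rather than above it. In 5 of the 10 (Sqstm1, Nfe2l2, Cul3, Tax1bp1 and Optn) the 3 libraries of one group did not overlap those of the other, as for 51.6% of all tested genes. The median log2 change of the 10 was -0.26, beside -0.03 for all tested genes, and 2 of the 10 had an unadjusted p under 0.05, as did 47.5% of all tested genes.

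**Figure D1:**
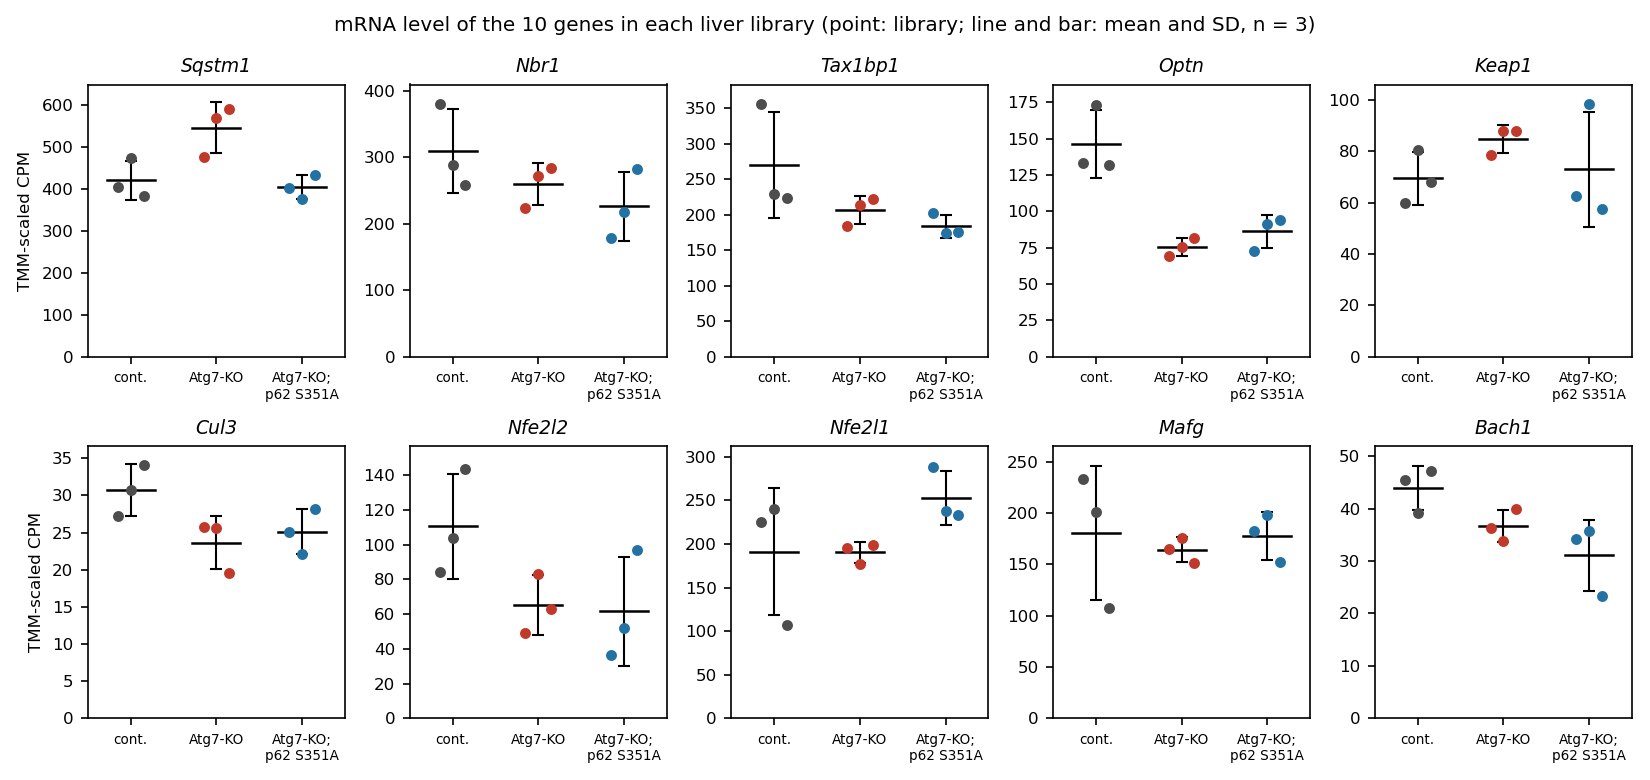
Level of each of the 10 genes by group, in TMM-scaled CPM on a linear axis from 0. Points are the 3 libraries of a group and the line and bar are their mean and SD. Optn is the gene whose cont. libraries (132 to 173 CPM) lie farthest above both other groups (69.1 to 94.3 CPM), whereas Keap1 and Mafg overlap throughout.

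The cargo receptors were considered first. p62 was the most abundant of the 10 mRNAs per length in every group: Sqstm1 stood at 149 CPM per kb in cont. livers, 194 in Atg7-KO livers and 143 in S351A livers. In each group its lowest library lay above the highest of Tax1bp1, the next gene, whose means were 82.1, 62.9 and 56.0 CPM per kb. At the other end stood Bach1 and Cul3, with means between 5.02 and 7.49 CPM per kb, and Keap1 was 8th in every group at 15.4, 18.9 and 16.2 CPM per kb. Lengths were the merged exons of the coding transcripts, so the order rests on that annotation.

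Optn (chr2:5020642-5064051, - strand) encodes a receptor that binds ubiquitin and LC3 and is best known from the clearance of damaged mitochondria and bacteria. It was at 133, 173 and 132 CPM in the cont. livers. In the Atg7-KO livers it was at 69.1, 75.2 and 81.3 CPM. In the S351A livers it was at 73.0, 91.2 and 94.3 CPM. Every library with Cre was below every cont. library, and the groups with Cre overlapped each other. The log2 change was -0.96 (SE 0.20, 95% confidence interval -1.39 to -0.53, adjusted p 0.00248 in edgeR's quasi-likelihood test) in Atg7-KO livers. In S351A livers it was -0.76 (SE 0.21, interval -1.21 to -0.32, adjusted p 0.0155). Between S351A and Atg7-KO livers it was 0.20 (interval -0.25 to 0.65, adjusted p 0.909), which leaves room for an S351A level from 0.840 to 1.56 times that of Atg7-KO livers.

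Optn was also the only one of the 10 past the threshold when all 3 groups were tested at once (adjusted p 0.00470, edgeR), where 35.2% of tested genes passed. It was called in 18 of 21 alternative analyses of Atg7-KO against cont. and in 16 of 21 of S351A against cont., and its log2 change was below 0 in all of them. The call was lost in both comparisons with thinning of all libraries to the smallest, with library sizes taken without the 20 most abundant genes, and with scaling by total counts (log2 change -0.43, adjusted p 0.107 in Atg7-KO and -0.28, adjusted p 0.324 in S351A livers). That scaling moved the median of all genes to 0.51 and 0.46, so that Optn stayed below the bulk of genes. Without S351A replicate 1 the S351A value was -0.66 (adjusted p 0.0697), no longer called, nor was it with the 6 compared libraries alone. Of 6 hepatocyte markers 5 fell in the same groups and Hnf4a did not, and 73 exonic bases of Optn are shared with a transcript on the other strand, 4930551O13Rik.

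Sqstm1 (chr11:50199366-50210827, - strand) was at 404, 474 and 384 CPM in the cont. livers. It was at 478, 571 and 591 CPM in Atg7-KO livers and at 404, 377 and 434 CPM in S351A livers. Every Atg7-KO library was above all 6 others, by a narrow margin for replicate 1. The difference between Atg7-KO and cont. livers was 0.38 (interval -0.07 to 0.83, adjusted p 0.170) and was not called, whereas it was called with scaling by total counts (0.90, adjusted p 0.00487) and with library sizes without the 20 most abundant genes (0.80, adjusted p 0.00829). The difference between S351A and Atg7-KO livers was -0.43 on the log2 scale (SE 0.21, interval -0.88 to 0.02, unadjusted p 0.0591, adjusted p 0.767) and was not called. S351A and cont. livers overlapped (-0.06, interval -0.51 to 0.40). Sqstm1 shares 580 exonic bases with Mrnip on the other strand, and whether reads were assigned by strand is not given in the sources used here.

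Nbr1 (chr11:101552149-101581951, + strand), a receptor related to p62 that joins it in condensates, was at 379, 289 and 258 CPM in cont. livers. It was at 224, 271 and 283 CPM in Atg7-KO and at 179, 217 and 282 CPM in S351A livers, and the groups overlapped in each comparison. Tax1bp1 (chr6:52713729-52766780, + strand), which brings the autophagy machinery to such condensates, was at 356, 229 and 224 CPM in cont. livers. It was at 184, 214 and 222 CPM in Atg7-KO and at 203, 174 and 175 CPM in S351A livers. Both groups lay below the lowest cont. library of Tax1bp1, for Atg7-KO by little, and cont. replicate 1 stood far above both others. Neither comparison was called (-0.38, adjusted p 0.206 and -0.55, adjusted p 0.0942).

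Since the 4 receptor mRNAs were measured in the same library, their proportions do not depend on how libraries are scaled. Each was expressed as its share of the summed CPM per kb of the 4, a measure chosen after their values were seen and given without a test. Sqstm1 made up 38.2, 46.7 and 44.8% of the 4 in cont. livers. It made up 57.4, 58.1 and 57.8% in Atg7-KO livers, and 53.6, 50.8 and 51.7% in S351A livers. The groups did not overlap in any pair, and the S351A livers lay in between. Single genes did not overlap in 51.6% (Atg7-KO against cont.), 16.9% (S351A against Atg7-KO) and 37.9% (S351A against cont.) of those tested. Sqstm1 itself overlapped between S351A and cont. livers, at means of 405 and 421 CPM. Its larger share in S351A than in cont. livers goes with lower means of the other receptors. As the 4 shares make up a whole, a larger share of Sqstm1 must lower the others together. Optn ran the other way, with 13.6, 18.4 and 16.5% in cont. livers. Its share was 8.97, 8.27 and 8.59% in Atg7-KO and 10.5, 13.3 and 12.2% in S351A livers, again with no overlap. Nbr1 held 17.0 ± 2.08%, 14.8 ± 0.230% and 15.6 ± 2.67% in the same order, and Tax1bp1 23.6 ± 4.83%, 18.8 ± 0.212% and 20.4 ± 2.61%. The summed level of the 4 was 346 ± 37.2 CPM per kb in cont. livers, 335 ± 35.7 in Atg7-KO livers and 276 ± 18.6 in S351A livers.

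**Figure D2:**
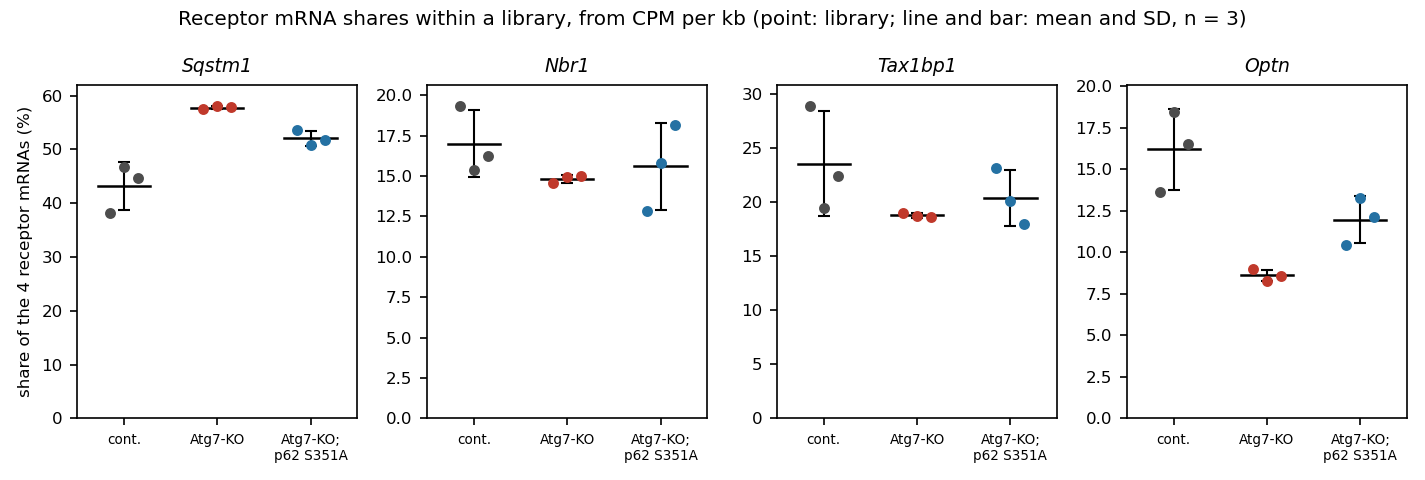
Share of each receptor mRNA in the summed CPM per kb of Sqstm1, Nbr1, Tax1bp1 and Optn, in percent, for each library (points) with the mean and SD of 3. The mean share of Sqstm1 is 43.2% in cont. livers, 57.8% in Atg7-KO livers and 52.0% in S351A livers, and that of Optn is 16.2%, 8.61% and 12.0%.

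The ligase genes came next. Keap1 (chr9:21229730-21239361, - strand) was at 60.1, 80.4 and 68.0 CPM in cont. livers. It was at 78.5, 88.0 and 88.1 CPM in Atg7-KO livers and at 62.7, 98.6 and 57.6 CPM in S351A livers. Its S351A libraries spanned all the other values, and no comparison was called in the reported analysis. On the log2 scale Atg7-KO against cont. was at 0.28 (adjusted p 0.336 in edgeR) and S351A against Atg7-KO at -0.22 (adjusted p 0.909). S351A against cont. was at 0.07 (adjusted p 0.864). With scaling by total counts Keap1 was called higher in Atg7-KO than in cont. livers (0.82, adjusted p 0.00851). The same held with library sizes without the 20 most abundant genes (0.71, adjusted p 0.0172). Cul3 (chr1:80264923-80340480, - strand), the scaffold that carries KEAP1, was at 27.2, 30.8 and 34.2 CPM in cont. livers. It was at 25.8, 25.7 and 19.5 CPM in Atg7-KO livers and at 25.1, 22.2 and 28.2 CPM in S351A livers. All Atg7-KO libraries lay below all cont. libraries of Cul3 without a call (-0.38, adjusted p 0.146), and each S351A value comes from 18 to 23 counts.

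Nfe2l2 (chr2:75675513-75704641, - strand), the gene of NRF2, was at 84.1, 104 and 144 CPM in cont. livers. It was at 49.3, 83.4 and 63.1 CPM in Atg7-KO livers and at 36.5, 51.8 and 96.8 CPM in S351A livers. The cont. and Atg7-KO libraries were separated by less than 1 CPM, and the 3 S351A libraries reached from below the lowest Atg7-KO value to within the cont. range. The differences from cont. were -0.77 (SE 0.32, interval -1.48 to -0.07, adjusted p 0.0780) and -0.85 (SE 0.34, interval -1.60 to -0.11, adjusted p 0.0789), neither called. Without S351A replicate 3, the high library, both were called (-0.79, adjusted p 0.0344 and -1.36, adjusted p 0.0109), and without cont. replicate 1 that of Atg7-KO livers was (-0.95, adjusted p 0.0497). Both were also called with the replicate number as a block (adjusted p 0.0293 and 0.0210), with sex, inferred from the counts as female in 1 of 3 cont., 2 of 3 Atg7-KO and 2 of 3 S351A livers, as a covariate (-0.96, adjusted p 0.0335 and -1.06, adjusted p 0.0373) and with no filter on low counts (adjusted p 0.0140 and 0.00770). No analysis gave a higher Nfe2l2 level than in cont. livers, in either group, under any of the 21 alternatives.

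Nfe2l1 (chr11:96817414-96829968, - strand) encodes NRF1, a relative of NRF2 that sits in the endoplasmic reticulum and restores proteasome genes. It was at 226, 240.1 and 108 CPM in cont. livers. It was at 195, 177 and 199 CPM in Atg7-KO livers and at 289, 238 and 233 CPM in S351A livers. Cont. replicate 3, the most deeply sequenced library, was far below the other cont. livers. The S351A libraries were all above the Atg7-KO libraries (0.41, SE 0.28, interval -0.20 to 1.02, unadjusted p 0.168, adjusted p 0.855), without a call.

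The partners of NRF2 on DNA closed the list. Mafg (chr11:120625117-120633600, - strand), a small MAF protein with which NRF2, NRF1 and BACH1 each pair, was at 233, 201 and 108 CPM in cont. livers. It was at 165, 176 and 152 CPM in Atg7-KO and at 182, 198 and 152 CPM in S351A livers, inside the cont. range throughout. As for Nfe2l1, cont. replicate 3 was the low library. Bach1 (chr16:87698945-87733346, + strand), a haem-sensing repressor that competes with NRF2 for the same sites, was at 45.5, 39.1 and 47.2 CPM in cont. livers. It was at 36.4, 33.9 and 40.0 CPM in Atg7-KO and at 34.2, 35.7 and 23.3 CPM in S351A livers. The S351A libraries lay below all cont. libraries of Bach1, on 19 to 30 counts each, and the change was not called (-0.50, SE 0.22, interval -0.97 to -0.03, adjusted p 0.101). Mafg shares 124 exonic bases with Sirt7 on the same strand, so its reads may have been divided between them.

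The second question was whether the S351A allele changed these genes in Atg7-deficient liver. None of the 10 was called by edgeR's quasi-likelihood test, none had an unadjusted p under 0.05, and none was called with DESeq2 or limma-voom either. Of all tested genes 0.00890% (1 gene) were called, and 6.59% had an unadjusted p under 0.05. Libraries of Sqstm1 and Nfe2l1, 2 of the 10, did not overlap between these groups, as for 16.9% of tested genes. Each of the 10 confidence intervals included no change. Taken over all 10 genes their ends lay between 0.542 and 2.03 times the Atg7-KO level, and that of Sqstm1 ran from 0.542 to 1.01 times it.

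The comparison of S351A with cont. livers uses the same cont. libraries as that of Atg7-KO livers, so these comparisons are not independent. There Optn was the 1 call of the 10, and with the replicate number as a block Nfe2l2 was the second (-0.88, adjusted p 0.0210), while 28.6% of all tested genes were called and 13.0% of all tested genes were called lower. The groups did not overlap for Optn, Tax1bp1 and Bach1, 3 of the 10, as for 37.9% of tested genes, and 4 of the 10 (these 3 and Nfe2l2) had an unadjusted p under 0.05, as did 41.0% of tested genes. The median log2 change of the 10 was -0.38 against -0.03 over all tested genes.

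**Figure D3:**
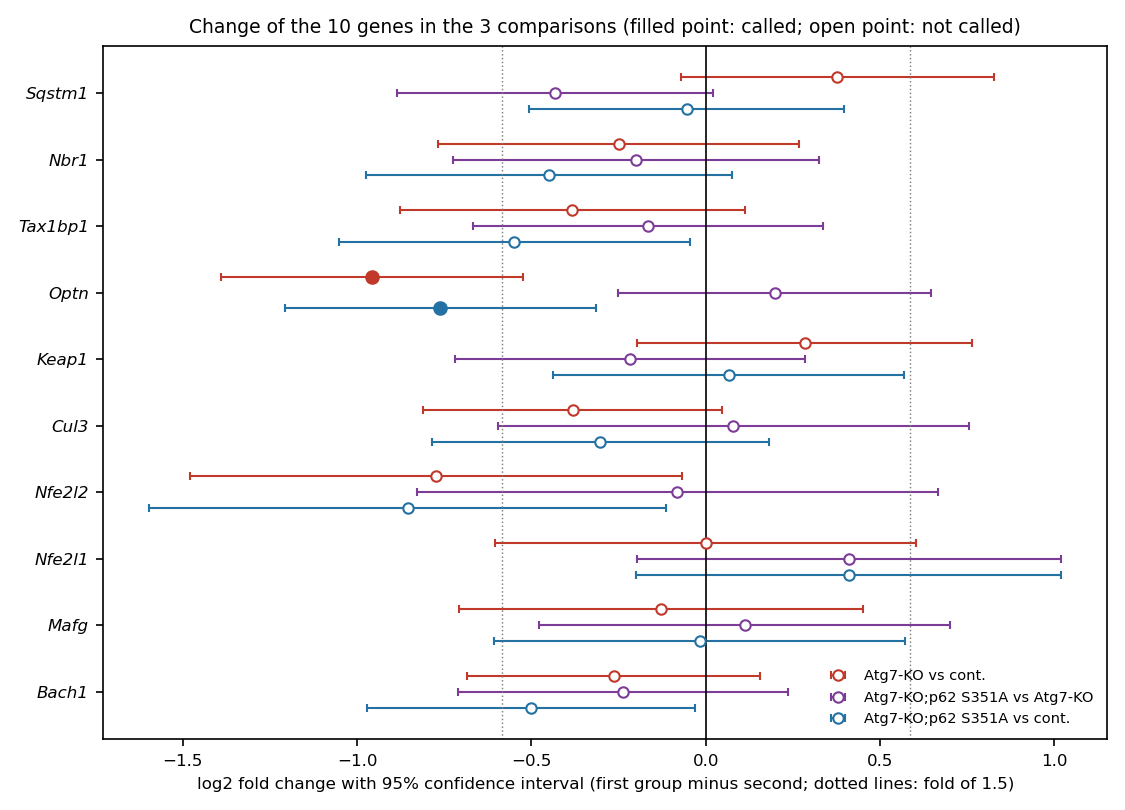
Log2 fold change of the 10 genes in the 3 comparisons, first group minus second, with 95% confidence intervals from edgeR. Filled points are called genes and dotted lines mark a fold of 1.5. Optn at -0.96 and -0.76 is the only gene with filled points, and for the comparison of S351A with Atg7-KO livers every interval includes 0.

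Ratios of gene pairs within a library were compared next, because they too are free of the scaling between libraries. Of 9 pairs, 5 had no overlap between Atg7-KO and cont. livers, 3 between S351A and Atg7-KO livers, and 2 between S351A and cont. livers. Single genes did not overlap in 51.6, 16.9 and 37.9% of those tested, so these counts are a description and not a result about the pairs. With 3 against 3 libraries the exact two-sided permutation test cannot go below p = 0.1, which is 0.27 after adjustment over the 27 comparisons, so none could pass. The ratios are of counts, with no correction for length, and serve to compare groups only.

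The ratio of Sqstm1 to Optn did not overlap between any of the 3 groups. It was 3.02, 2.73 and 2.91 in the cont. livers. It was 6.88, 7.54 and 7.23 in Atg7-KO livers and 5.50, 4.12 and 4.58 in S351A livers. The geometric mean ratio in Atg7-KO livers was 2.50 times that in cont. livers, that in S351A livers was 1.63 times it, and the S351A value was 0.651 of the Atg7-KO value. Relative to Nbr1 and Tax1bp1, Sqstm1 was 1.53 and 1.66 times as high in Atg7-KO as in cont. livers, also with no overlap. S351A livers overlapped the cont. livers in both of these ratios, and were below Atg7-KO livers without overlap in the one to Tax1bp1 (0.833 of it). The ratio of Sqstm1 to Keap1, by contrast, overlapped in every comparison, with log2 means of 2.59 in cont. livers, 2.68 in Atg7-KO livers and 2.50 in S351A livers, and S351A replicate 2 apart at 1.93.

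Nfe2l2 against Keap1 gave 1.40, 1.29 and 2.10 in cont. livers. The ratio was 0.630, 0.948 and 0.718 in Atg7-KO livers and 0.585, 0.528 and 1.67 in S351A livers. Nfe2l2 counts exceeded Keap1 counts in all cont. libraries and in none of the Atg7-KO libraries, and the mean ratio was 0.484 of the cont. value. S351A replicate 3 was the exception among livers with Cre. Keap1 against Cul3 was 1.60 times as high in Atg7-KO as in cont. livers with no overlap, whereas the S351A libraries overlapped both ranges. Mafg against Bach1 was higher in S351A livers than in every other library (5.27, 5.48 and 6.41, against 2.26 to 5.14), on low Bach1 counts. Nfe2l2 against Nfe2l1 and against Bach1 overlapped in all comparisons.

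**Figure D4:**
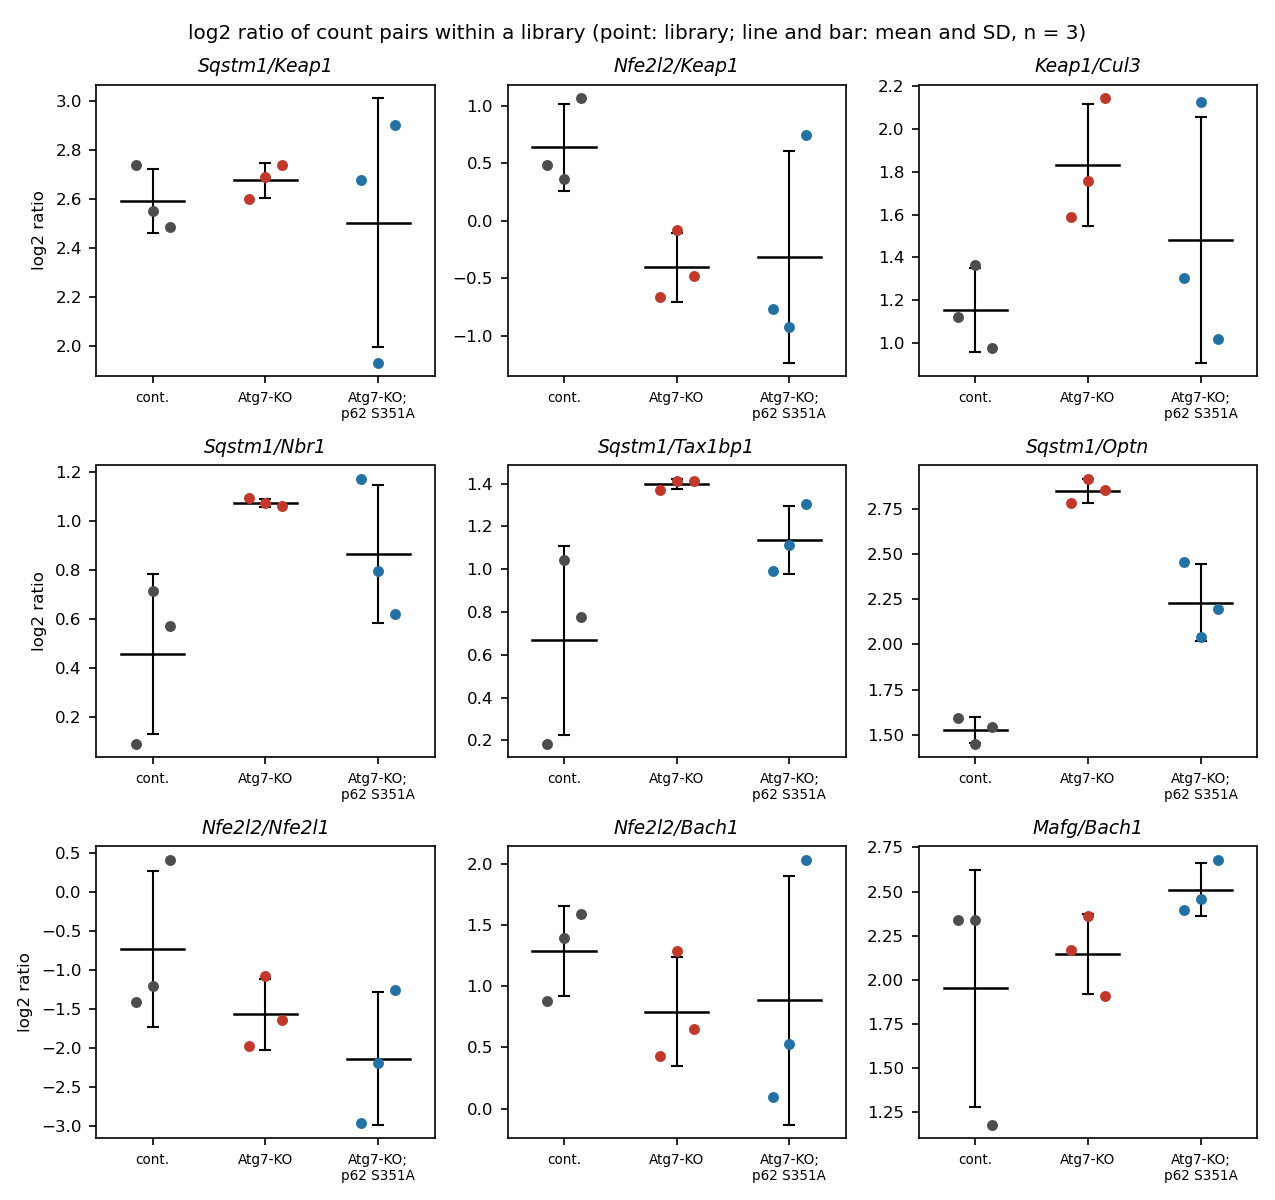
Log2 ratio of counts for 9 gene pairs within each library, with a prior count of 2 scaled to library size. Points are libraries and the line and bar their mean and SD. The panel of Sqstm1/Optn has 3 separate groups with means of 1.53, 2.85 and 2.23, and that of Nfe2l2/Keap1 puts every Atg7-KO library below every cont. library.

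The surrounding pathway was described by 71 further genes in 10 lists, of which 68 could be tested. In Atg7-KO livers 19 were called higher and 11 lower than in cont. livers. In S351A livers 15 were called higher and 9 lower. Over all tested genes the shares with a higher call were 19.9% in Atg7-KO and 15.6% in S351A livers, and those with a lower call 18.1% and 13.0%. Against that background, counts of 1 to 3 called genes in a list describe those genes and not the list. These splits depend on the scaling: by total counts they were 34 higher and 1 lower in Atg7-KO livers and 26 higher and 1 lower in S351A livers, though no gene called in the reported analysis changed sign. Among the 10 genes the same scaling gave 2 called higher (Sqstm1 and Keap1) and none lower in Atg7-KO livers. In S351A livers 1 was called higher (Nfe2l1). That scaling moved the median of all tested genes to 0.51 and 0.46 against cont. livers. The share of all tested genes called with it is not given here, so these counts have no background beside them. Between the groups with Cre none of the 68 was called by edgeR or limma-voom. Of the 68, 16 had an unadjusted p under 0.05 in edgeR, as did 6.59% of all tested genes. Of these 16, 11 were among the 12 NRF2 targets described next. DESeq2 called 4 lower in S351A livers (Gclc, Gsr, Pgd and Srxn1, log2 changes of -0.91 to -1.08), all of them NRF2 targets. The share of all tested genes that DESeq2 called is not given here. The established targets of NRF2 gave the largest values. In Atg7-KO livers 11 of 12 were called higher, with a median log2 change of 2.58. In S351A livers 9 of 12 were, with a median of 1.83. The medians of all tested genes were -0.030 and -0.026. The list was chosen with earlier results of these data known, so its counts are a description and not independent support. In both groups with Cre the mean of Nfe2l2 mRNA itself was below its cont. mean without a call. S351A replicate 3 lay within the cont. range, and NRF2 protein is not part of these data. Nqo1, a quinone reductase, stood at 14.1 ± 6.56 CPM in cont. livers, 303 ± 71.4 in Atg7-KO livers and 138 ± 28.3 in S351A livers. Srxn1, which repairs peroxiredoxins, went from 56.4 ± 8.57 to 1802 ± 331 and 852 ± 221 CPM, and the transporter gene Abcc4 from 5.14 ± 2.51 to 202 ± 21.6 and 100.1 ± 19.4 CPM. Slc7a11, the cystine importer, had 0 to 2 counts in the cont. livers, where 3 counts per library would average 1.07 CPM, and a mean of 163 CPM in Atg7-KO livers. With its cont. level set to that floor, its fold change was 153 in Atg7-KO and 43.1 in S351A livers. It stayed the largest of the list, so the list's medians could not move. In S351A livers Slc7a11 was at 117, 13.6 and 7.35 CPM, so replicate 1 carries its mean. All 12 were lower in S351A than in Atg7-KO livers, with a median of -0.96.

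Of 8 other genes of the CUL3 ligase and its NEDD8 cycle, none was called in Atg7-KO livers and 3 were called lower than in cont. in S351A livers (list medians of -0.37 and -0.61). Those were Uba3, a subunit of the NEDD8-activating enzyme (56.0 ± 12.3 CPM in cont., 36.4 ± 5.60 in S351A, log2 change -0.64, adjusted p 0.0473), and Rbx1 and Nedd8, whose libraries overlapped. Other routes that degrade NRF2 (medians of -0.20 and -0.17) gave 2 of 8 genes called lower in both: Dcaf11, a substrate receptor of a CUL4 ligase (433 ± 39.3 CPM in cont. livers, 219 ± 5.84 in Atg7-KO livers, 229 ± 38.1 in S351A livers), and Syvn1, the ligase HRD1 of the endoplasmic reticulum (330.3 ± 177, 129 ± 11.9 and 135 ± 23.0 CPM). Both had lower levels in every library with Cre than in every cont. library. Among 6 tested genes listed for KEAP1-binding proteins with an ETGE-like motif (medians of 0.22 and 0.21), Mcm3, a replication helicase subunit, was called higher in both (1.43 and 1.48), and Wdr1, which promotes actin disassembly, in Atg7-KO livers (0.98, adjusted p 0.00101). Mcm3 had only 5, 7 and 53 counts in the cont. livers and 6, 13 and 7 in the S351A livers. Proliferation markers rose in the same libraries as Mcm3.

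Around NRF1, 3 of 5 processing genes were called lower in Atg7-KO livers and 3 in S351A livers, with list medians of -0.68 and -0.61. Ddi2, the protease that cuts NRF1 into its active form, stood at 22.0 ± 7.39 CPM in cont. livers, 3.10 ± 1.83 in Atg7-KO livers and 5.17 ± 4.92 in S351A livers, but shares 1749 of its 9553 exonic bases with Rsc1a1 on the same strand, so its count is uncertain. Ngly1, which removes sugars from NRF1, stood at 27.0 ± 3.65, 15.4 ± 0.727 and 9.92 ± 2.60 CPM and was called lower in both (-0.82 and -1.44). Sel1l, the partner of HRD1, was called lower in Atg7-KO livers (-0.68, adjusted p 0.0265), and Vcp, the ATPase that pulls NRF1 out of the membrane, in S351A livers (-0.61, adjusted p 0.0342). Fbxw7, which marks NRF1 for degradation, was called higher in S351A livers (0.99, adjusted p 0.0196). Counts in the S351A livers were low for Ngly1 (11, 8 and 6) and for Ddi2 (5, 0 and 8).

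In the CNC and small MAF family (medians of 0.48 and 0.67 over 3 genes), Maff was called higher in Atg7-KO livers (1.71 ± 0.642 against 7.01 ± 1.41 CPM, 2.05), Bach2 lower (-0.95), and Mafk higher in S351A livers (0.67, adjusted p 0.0467, but 0.0505 and not called with the replicate block). Maff had only 2, 7 and 16 counts in the cont. livers. Nfe2 and Nfe2l3 were too low to test. Of 6 partners and targets of BACH1 (medians of 0.60 and 0.58), the ferritin genes Fth1 (1.71 and 1.01) and Ftl1 (1.22 and 0.83), which are also NRF2 targets, were called higher in both, and their many pseudogenes make the counts less certain. Among 9 kinases and linkers of p62 (medians of -0.032 and -0.22), Mvp, the major vault protein, was called higher in both (73.3 ± 3.52 CPM in cont. livers, 247 ± 9.15 in Atg7-KO livers, 188 ± 21.6 in S351A livers). The catalytic subunits of casein kinase 2, which phosphorylates p62, moved apart in Atg7-KO livers, with Csnk2a1 lower (-0.68, adjusted p 0.0101) and Csnk2a2 higher (0.64, adjusted p 0.0322). Wdfy3, which links p62 to autophagic membranes, was called lower there (-0.73). Of 6 other receptors (medians of -0.24 and -0.38), Bnip3, a mitophagy receptor, was called lower in both (-1.23 and -1.09), and Bnip3l was called higher in S351A livers with the replicate block (0.73, adjusted p 0.0351). Of 5 LC3 and GABARAP genes (medians of -0.17 and -0.29), Map1lc3a was called higher (0.69) and Gabarapl1 (-0.79) and Gabarapl2 lower in Atg7-KO livers, the last with overlapping libraries, and none was called in S351A livers except Gabarapl1 with the replicate block (-0.65, adjusted p 0.0455).

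Genes with the most similar pattern over the 9 libraries were sought among 6491 other genes of at least 20 CPM, by Pearson correlation of log2 CPM. Among those closest to Sqstm1 were Mri1 (r = 0.958), Pfkl (0.946), Elof1 (0.912) and D19Bwg1357e (0.911), each highest in Atg7-KO livers. Those closest to Keap1 were Rrp7a (0.949), Ipo4 (0.944), 2510039O18Rik (0.916), Scpep1 (0.906) and Nans (0.899). Those closest to Nfe2l2 were Cnbp (0.976), Tmem56 (0.972), Adrm1 (0.963), Slc39a14 (0.960) and Mcfd2 (0.954), each with its highest mean in cont. livers. The 9 points share the group differences and the depth of each library, so these values describe likeness only.

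Because NRF2 and MAF proteins act through the antioxidant response element, its core TGACNNNGC was searched on both strands of the RefSeq promoters (GRCm38.p6, 250 bases before to 50 after each start). It was present in 3 of the 10 genes, Nfe2l2, Tax1bp1 and Mafg, and in 14.0% of 27025 genes. The matches are shown with 10 bases on each side and the core in capitals, on the strand of the gene, and lie at chr2:75704885-75704913, chr6:52713950-52713978 and chr11:120633751-120633779.
Nfe2l2: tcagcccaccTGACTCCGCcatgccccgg
Tax1bp1: gtctccgtggTGACGAAGCtctctttccc
Mafg: ctctgcaggaGCACGGTCAacccggcgag
The core of Mafg is on the opposite strand. A match of letters is not a bound site, and none of these 3 genes was called in the reported analysis of any comparison.

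How far the 10 values depend on the analysis is shown for all 21 alternatives. With scaling by total counts 6 of the 10 (Nfe2l1, Cul3, Nbr1, Tax1bp1, Mafg and Bach1) were above rather than below 0 in Atg7-KO livers, where the median of all genes stood at 0.51, whereas in the comparison of S351A with Atg7-KO livers, where scaling made little difference, none of the 10 changed sign with it.

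**Figure D5:**
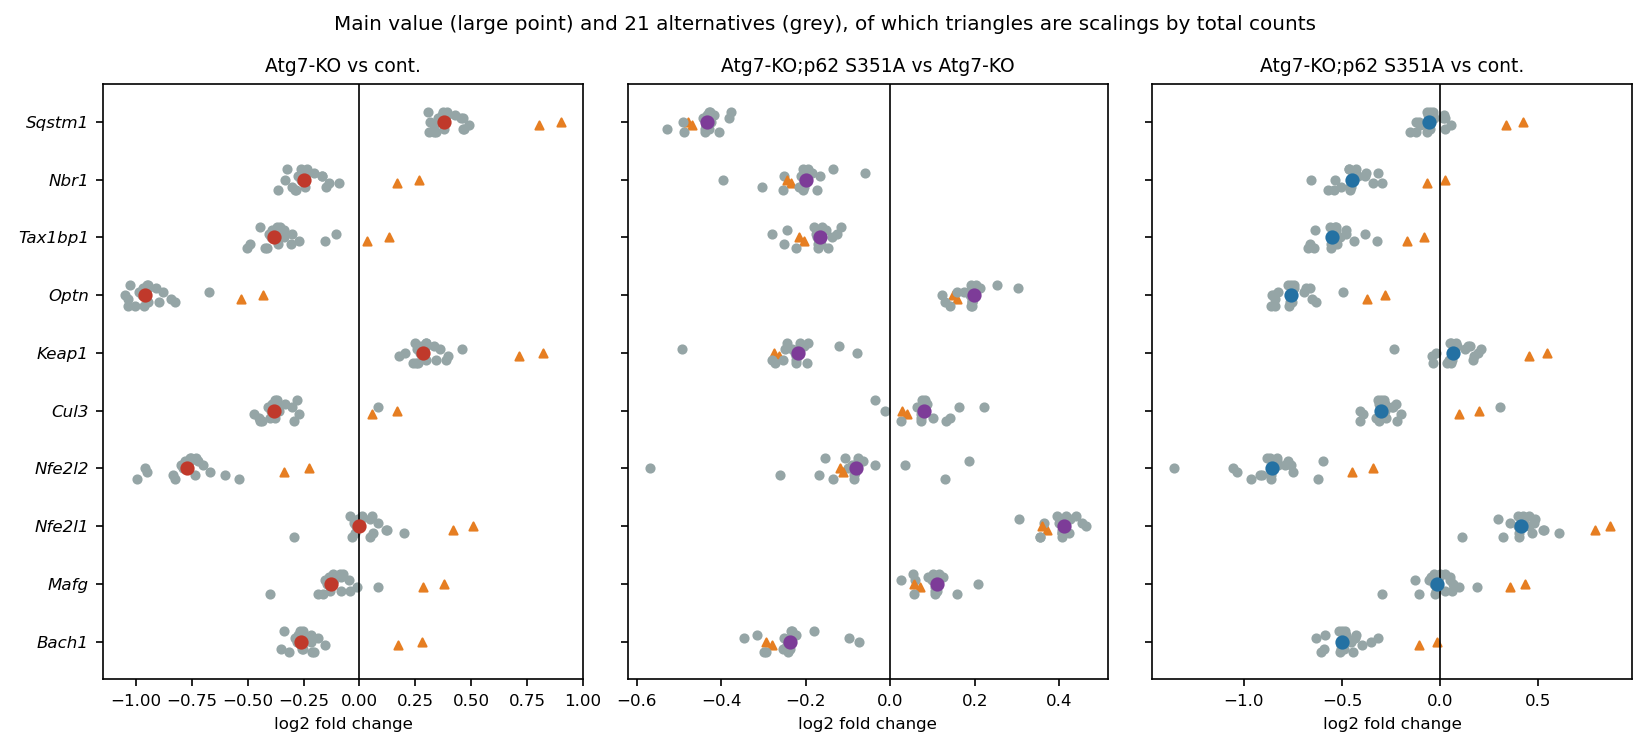
Log2 fold change of the 10 genes in each comparison for the reported analysis (large points) and 21 alternatives (small points), with scalings by total counts as triangles. Optn lies below 0 in every alternative against cont. livers, and in the comparisons with cont. livers the triangles lie to the right of the other points for every gene except Cul3, whose thinned value reaches 0.30 in S351A livers.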

How the data were processed

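Poly(A) RNA from 9 mouse livers was sequenced by the authors as 75-base single-end reads, trimmed with Trim Galore, aligned with STAR and counted with RSEM, and per the labels and methods mm10 was the genome build. The annotation and the strand setting are not given in the sources used here. The deposited values are expected counts, estimated per gene by RSEM, of which 4.40 to 7.75% per library were not whole, and they were rounded to whole numbers. Libraries held 713854 to 15426589 counts.

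Groups were taken from the sample titles. The members and gene lists were chosen with earlier results of these data known. Genes were filtered with filterByExpr (minimum count 10, minimum total 15), scaled by TMM (factors 0.729 to 0.843 in cont., 1.12 to 1.18 in Atg7-KO, 1.07 to 1.14 in S351A livers) and tested with edgeR 4.0.16 (R 4.3.3) in one quasi-likelihood fit of all 3 groups, with Benjamini-Hochberg adjustment over 11238 genes. A standard error is the one implied by the p-value. The fit was tested on simulated data. No replicate pair agreed within sampling noise, and nothing in the labels says that replicates share a litter or a day, so p-values measure the spread between these libraries. Deviations from the group means of same-numbered cont. and S351A libraries correlated (r = 0.159 to 0.234, each the best match), so for that comparison values with the replicate block are given where they change a call. In the other comparisons not every same-numbered pair did. Intervals from single counts cover counting error only. Named were the 10 members, Atg7, the list genes called without overlap (up to 4 per list and comparison) and the 5 genes most correlated with Sqstm1, Keap1 and Nfe2l2. List genes called with overlapping libraries, and those in counts of 5 or fewer, were also named. Ratios within a library used a prior count of 2 and an exact permutation test over libraries.

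Alternatives were RLE, upper-quartile and total-count scaling, library sizes without the 20 most abundant genes, no filter, a minimum of 10 counts per library, limma-voom 3.58.1, DESeq2 1.42.0, the 6 compared libraries alone, the replicate number as a block, sex inferred from the counts as a covariate, thinning to the smallest library, and leaving out each library. Symbols of 23376 of 24411 genes matched GENCODE M21. One of the correlated genes and the coding sequence at the mutated site are not reported here.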

Additional observations from a re-analysis of the deposited data

How the results depend on the processing

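The number of the 10 genes called in Atg7-KO against cont. livers was 1. It was 2 with total library size, without the 20 most abundant genes, with no filter and with inferred sex, 0 after thinning to the smallest library, and 1 to 2 when 1 library was left out (2 without cont. replicate 1 or S351A replicate 3). In S351A against cont. livers it was 1. It was 0 without the 20 most abundant genes, after thinning and with the 6 compared libraries alone, 2 with no filter and with inferred sex, and 0 to 2 when 1 library was left out (0 without S351A replicate 1, 2 without S351A replicate 3). The number that differed among the 3 groups was 1. It was 2 with total library size, without the 20 most abundant genes, with no filter and with inferred sex, 0 after thinning, and 1 to 2 when 1 library was left out. With the replicate number as a block each of these 3 counts was 2. In both comparisons with cont., Nfe2l2 was the gene added by the block, no filter, inferred sex or a left-out library. Same-numbered libraries correlated between -0.043 and 0.248 in their deviations from the group means for cont. and Atg7-KO livers and between 0.071 and 0.303 for Atg7-KO and S351A livers, and there the numbers were not read as pairs. For cont. and S351A livers all 3 correlations were above 0.1, and beyond Nfe2l2, Mafk, Bnip3l and Gabarapl1 the block changed no call of the members and list genes. In S351A against Atg7-KO livers the count was 0 in every alternative.

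No called value changed sign. Uncalled values of single genes did, among them Cul3 and Tax1bp1, and all follow as log2 changes. In Atg7-KO against cont. livers, Nfe2l1 was at 0.0083 with RLE factors, 0.12 with upper-quartile factors, 0.081 with a minimum of 10 counts per library, 0.0096 with DESeq2, 0.060 with limma-voom, 0.056 with the replicate block and 0.047 with the 6 libraries alone, and Cul3 at 0.084 after thinning. With total library size Nfe2l1 was at 0.51, Cul3 0.17, Nbr1 0.27, Tax1bp1 0.13, Mafg 0.38 and Bach1 0.28. Without the 20 most abundant genes these were 0.42, 0.057, 0.17, 0.035, 0.29 and 0.17. Leaving out 1 library moved Nfe2l1 from -0.29 to 0.20 and Mafg from -0.40 to 0.081. In S351A against cont. livers, Sqstm1 was at 0.055 with upper-quartile factors, 0.42 with total library size, 0.33 without the 20 most abundant genes, 0.013 with a minimum of 10 counts per library, 0.026 after thinning and 0.020 with the 6 libraries alone. Mafg was at 0.095, 0.43, 0.36 and 0.050 under the first 4 of these, 0.025 with limma-voom, 0.025 with the replicate block and 0.052 with the 6 libraries alone. Cul3 was at 0.20 with total library size, 0.096 without the 20 most abundant genes and 0.30 after thinning, Nbr1 at 0.023 with total library size, and Keap1 at -0.037 with no filter and -0.021 with inferred sex. Leaving out 1 library moved Sqstm1 from -0.13 to 0.027, Keap1 from -0.24 to 0.19 and Mafg from -0.30 to 0.19. In S351A against Atg7-KO livers it moved Nfe2l2 from -0.57 to 0.19 and Cul3 from -0.036 to 0.16. Scaling by total counts moved the median of all genes by construction, and thinning left 8600 genes to test. For the other changes the cause was not tested.

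Of 210 values per comparison, 174 in Atg7-KO against cont., 205 in S351A against Atg7-KO and 175 in S351A against cont. livers kept direction and side of the threshold, and of 216 ratios 212 moved by less than 1 SD and 8 changed sign. Of the 8, log2 Keap1/Cul3 in S351A against cont. livers went from 0.33 to -0.069 after thinning, Sqstm1/Keap1 without S351A replicate 2 from -0.17 to 0.11 against Atg7-KO and from -0.087 to 0.20 against cont. livers, and the other 5, of Nfe2l2/Keap1, Nfe2l2/Bach1 and Mafg/Bach1, changed when 1 library was left out. Depth limits the S351A livers most: 3 counts, taken as the floor, correspond to 0.267 CPM in the deepest library and up to 3.70 CPM in the S351A libraries.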
